A study of Mus musculus with 8 samples.

Results

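The semaphorins, plexins, neuropilins and netrins are families of guidance proteins, and their messenger RNAs were followed here in the whole aorta of atherosclerotic mice with and without a constitutively active IKK2 in arterial endothelium. Members were taken by gene symbol: every semaphorin of classes 3 to 7, every plexin, the 2 neuropilins, the netrins and netrin-G proteins, the Unc5 receptors, Dcc and Neo1, and the plexin domain-containing proteins Plxdc1 and Plxdc2. The rule matched 45 of the 24411 gene rows of the count table. Of these, 42 had a mean raw count of 20 or more over the 8 libraries and are described below, and all 42 also passed the filter on low counts. The other 3 were Ntng1, a netrin-G with a mean raw count of 14.6, Ntn5, with 0 counts in all 8 libraries, and Dcc, a netrin receptor with 4 counts in caIKK2EC 5 and 0 counts in the other libraries. A count of 0 allows up to 3 counts, which is 0.0970 to 0.138 CPM depending on the library, where CPM is the count scaled to a common library size. Sema5b lay closest above the limit, with a mean raw count of 22.4.

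Guidance proteins were first known from growing axons, where they attract or repel the growth cone, and they also act on endothelial cells, smooth muscle cells and leukocytes. Class 3 semaphorins are secreted and bind a neuropilin, which pairs with a class A plexin as the signalling chain. The other vertebrate classes are mostly anchored in the membrane and bind plexins directly, and plexins act through a GTPase-activating domain on small GTPases of the Ras and Rap kind. Netrins are secreted proteins related to laminins, and they signal through Dcc, neogenin and the Unc5 receptors. Semaphorin and netrin signals are known to steer vessel patterning in the embryo and the movement of macrophages in plaques.

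Coordinates are those of GRCm38. The caIKK2EC group holds 5 mice and the Control group 3 mice, with 1 library per mouse. All lack apolipoprotein E and were fed a Western-type diet for 12 weeks. The mice were 18 weeks (caIKK2EC 1 and 3, Control 1 and 2) or 19 weeks old (caIKK2EC 2, 4 and 5, Control 3). The caIKK2EC mice carry a constitutively active IKK2, the kinase that switches on NF-κB, together with EGFP behind a loxP-flanked stop cassette, and the tamoxifen-inducible recombinase BMX-CreERT2, which is active in arterial endothelium. Controls were littermates with the caIKK2(+/+) allele and no recombinase, and both groups received tamoxifen at 1 mg per 20 g body weight. The sources used here do not say whether a mouse belongs to the early or the late activation arm of the series. Poly(A) RNA was sequenced as single reads of 50 nt, and a library held 23461655 to 30808502 counts. Control 3 is the only male. The caIKK2EC 1 library and the 3 Controls ran on lane 7 and caIKK2EC 2 to 5 on lane 8, as the column names show, so lane 8 gives no comparison between genotypes. Ikbkb, which encodes IKK2, stood at 99.3, 102, 98.7, 99.9 and 91.6 CPM in caIKK2EC 1 to 5, against 86.8, 87.0 and 65.4 CPM in Control 1 to 3. All 5 caIKK2EC values exceeded the 3 Control values (1.23-fold), but neither test called it (edgeR adjusted p = 0.237, DESeq2 adjusted p = 0.146), and the counts do not tell transgene from endogenous transcripts.

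Plexin-C1 was the member with the clearest difference: its mRNA was 2.01-fold higher in caIKK2EC aortas. Plxnd1, Plxdc1 and Sema6d were also higher, by 1.39- to 1.71-fold, while the secreted semaphorins Sema3a, Sema3c and Sema3d and the membrane semaphorin Sema6c were lower, at 0.462 to 0.684 of the Control level. These 8 are the members that DESeq2's Wald test called at a Benjamini-Hochberg adjusted p under 0.05, 4 in each direction. The main test, edgeR's quasi-likelihood test with the same adjustment over 14679 genes, called 0 members and 0% of all genes, and its lowest adjusted p was 0.107. On data simulated from these libraries, the share of false calls stayed under the threshold of 0.05 with edgeR and exceeded it with DESeq2. The simulation was drawn once, with the spread of each gene as edgeR estimates it and no outlying library. It therefore cannot rank the tools on these data. The DESeq2 calls are given beside the spread of each gene and not as established differences. Of the 42 members, 21 had a log2 fold change (caIKK2EC over Control) above 0 and 21 below 0. Their median was 0.03, against -0.02 over all genes tested.

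The DESeq2 calls are 9.52% of the members in each direction, where 1 gene is 2.38% of the list, against 4.55% called higher and 1.51% called lower of the genes with a DESeq2 adjusted p. At an unadjusted edgeR p under 0.05, 7 members (16.7%) were higher and 8 members (19.0%) lower, against 9.66% and 7.47% of all genes. In 5 members (11.9%) the 5 caIKK2EC values all exceeded the 3 Control values and in 3 members (7.14%) all were below them, against 7.01% and 3.22% of all genes. With 5 against 3 libraries, the exact two-sided permutation test cannot give a p under 0.0357. Which genes DESeq2 called changed when a library was left out. Without Control 3, with only Controls 1 and 2 left, it called Plxnc1 alone among the members, with 1 higher and 0 lower. A lost call need not mean a smaller difference. Sema6d then had a log2 fold change of 0.766, against 0.774 with all libraries, and Plxdc1 had 0.580, against 0.604.

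**Figure D1:**
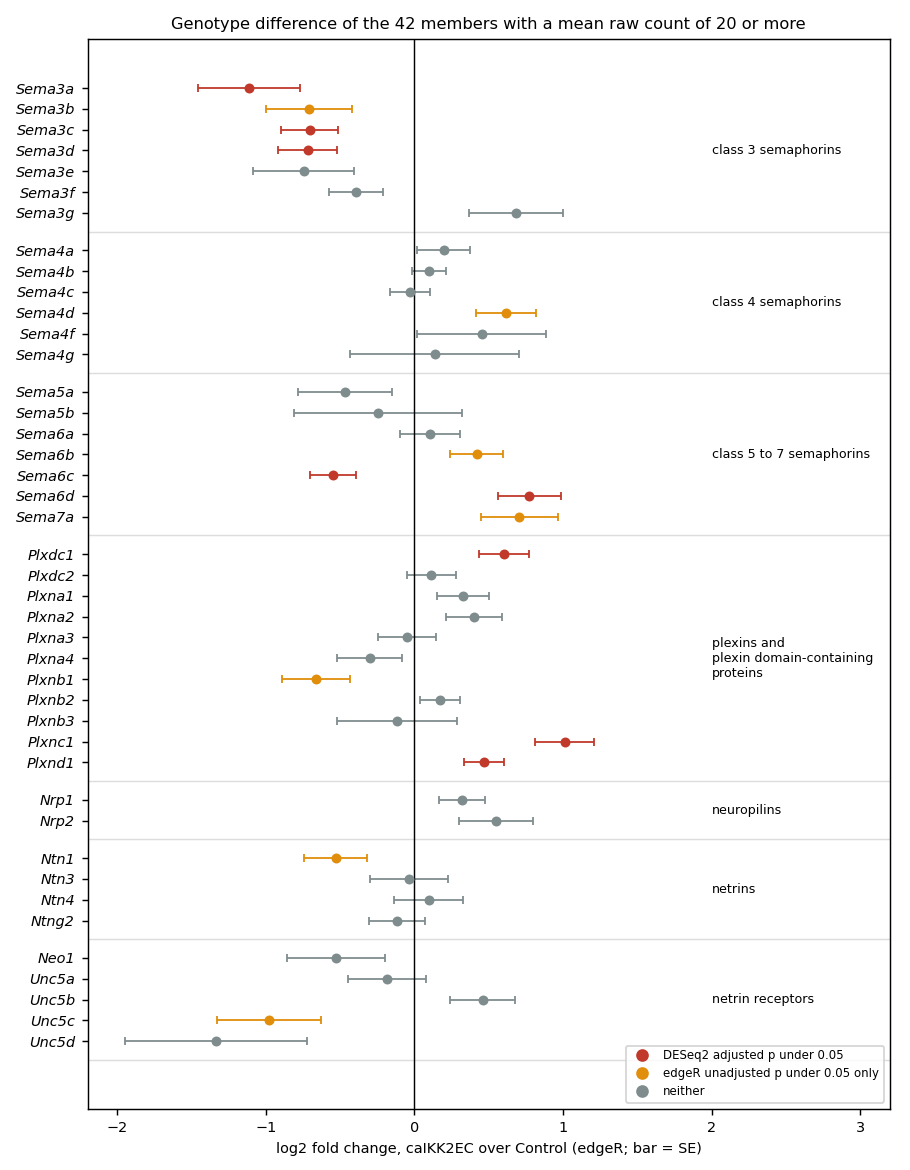
Log2 fold change of caIKK2EC over Control for the 42 members, grouped by family from top to bottom, with the standard error of the edgeR fit as a bar. Red points are the 8 members that DESeq2 called, orange points have an unadjusted edgeR p under 0.05 only and grey points neither; 6 of the 7 class 3 semaphorins lie left of 0.

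Marker levels of several cell types also differed between the groups. The summed level of 10 macrophage markers was 8818 to 12371 CPM in caIKK2EC libraries and 2223 to 7251 CPM in Controls, and all 10 were higher in every caIKK2EC library than in any Control. The sum of 10 smooth muscle markers was 10389 to 21353 CPM in caIKK2EC and 18798 to 37693 CPM in Control, with a median log2 fold change of -0.66; the sums overlapped, and 1 of the 10 markers was lower without overlap. Control 3 was lowest in the macrophage sum and highest in the smooth muscle sum, and caIKK2EC 1 was lowest in the smooth muscle sum. Lyz2 weighs most in the macrophage sum, with 541 CPM in Control 3 against 4059 and 4399 CPM in Controls 1 and 2. Adgre1, Mrc1 and Itgam were lowest in Control 2, and the other macrophage markers were lowest in Control 3. Endothelial markers summed to 2719 to 3419.8 CPM in caIKK2EC and 1639.85 to 3283 CPM in Control. Fibroblast markers summed to 12330.3 to 15949 CPM in caIKK2EC and 10029.5 to 13639 CPM in Control, and adipocyte markers to 709 to 6009 CPM in caIKK2EC and 2708 to 3499 CPM in Control. Lymphocyte markers were low: T cell markers summed to 61.6 to 106 CPM in caIKK2EC and 22.9 to 67.5 CPM in Control, and B cell markers to 59.1 to 77.3 CPM in caIKK2EC and 27.4 to 58.9 CPM in Control, without overlap. The sum for Schwann cells and neurons was 76.0 to 98.5 CPM in caIKK2EC and 60.9 to 90.2 CPM in Control. Lymphatic endothelium summed to 126 to 217 CPM in caIKK2EC and 100.4 to 138 CPM in Control, and Ccl21a, which marks lymphatic endothelium, was at 0 in all libraries. Cardiac and skeletal muscle markers summed to 51.8 to 993 CPM in caIKK2EC and 36.8 to 1950.2 CPM in Control, where Control 1 was the highest, with a median log2 fold change of -1.24. The part of these cell types in the results below was not tested, and in whole tissue fewer cells of a type and less RNA per cell cannot be told apart.

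The levels of the members spanned a wide range; means below are given with the SD over 5 caIKK2EC and 3 Control libraries. Per kilobase of exon, Ntn1 was the highest member over all 8 libraries at 55.6 CPM per kb, followed by Plxnd1 at 44.1, Plxnb2 at 39.9, Sema3f at 39.3 and Nrp1 at 37.4 CPM per kb. Sema5b was the lowest at 0.120 CPM per kb. These ranks pool the groups: in caIKK2EC alone Plxnd1 was above Ntn1 (49.3 and 47.7 CPM per kb) and Unc5d below Sema5b (0.0896 and 0.112 CPM per kb), while in Control Ntn1 was the highest at 68.9 and Sema5b the lowest at 0.135 CPM per kb. The order at the top depends on the length used: by the longest annotated transcript Nrp1 was the highest, at 109 CPM per kb in caIKK2EC and 86.9 CPM per kb in Control, against 51.0 and 73.6 CPM per kb for Ntn1 in these groups. The 5 highest members thus include a netrin, a secreted semaphorin, a semaphorin co-receptor and 2 plexins.

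**Figure D2:**
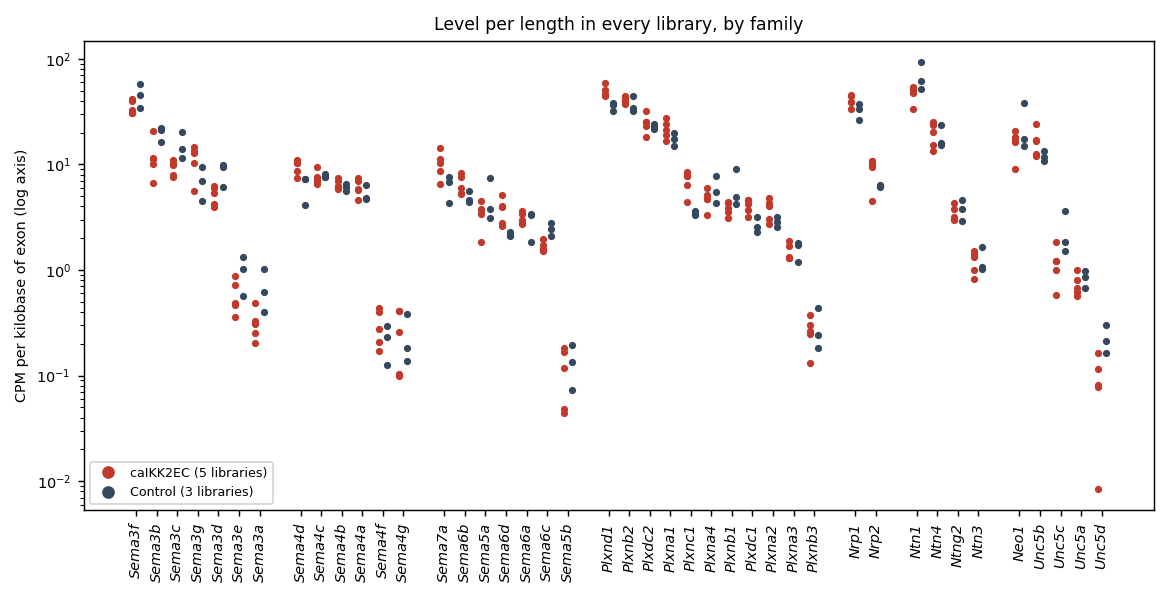
Level of each member in CPM per kilobase of exon (log axis) in every library, caIKK2EC left of Control for each gene, ordered within each family by mean level. Ntn1, Plxnd1, Plxnb2, Sema3f and Nrp1 are the 5 highest, and Unc5d in caIKK2EC 1 is the lowest point drawn.

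The stretches of DNA before the transcription start of 2 plexins and 2 class 3 semaphorins are shown because DESeq2 called these genes in opposite directions and no annotated exon lies in them. RefSeq promoter windows on GRCm38.p6 were found for 33 of the 42 members, 44 windows in all. The 150 bases just before the start, 5′ to 3′ on the gene's own strand, lie at chr10:94944846-94944995 (minus) for Plxnc1, chr6:115995006-115995155 (minus) for Plxnd1, chr5:13396634-13396783 (plus) for Sema3a and chr5:12383016-12383165 (plus) for Sema3d. The RefSeq start of Sema3a lies inside the longer span that GENCODE gives the gene. Capitals mark the GC box GGGCGG on either strand.
Plxnc1: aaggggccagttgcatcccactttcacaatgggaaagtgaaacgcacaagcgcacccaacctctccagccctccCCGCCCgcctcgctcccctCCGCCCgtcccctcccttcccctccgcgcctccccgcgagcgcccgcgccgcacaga
Plxnd1: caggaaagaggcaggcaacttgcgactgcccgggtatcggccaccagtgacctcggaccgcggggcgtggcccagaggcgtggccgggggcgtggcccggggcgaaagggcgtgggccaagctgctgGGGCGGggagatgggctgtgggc
Sema3a: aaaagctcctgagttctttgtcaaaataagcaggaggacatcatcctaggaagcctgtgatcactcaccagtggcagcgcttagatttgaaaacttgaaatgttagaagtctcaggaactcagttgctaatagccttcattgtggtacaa
Sema3d: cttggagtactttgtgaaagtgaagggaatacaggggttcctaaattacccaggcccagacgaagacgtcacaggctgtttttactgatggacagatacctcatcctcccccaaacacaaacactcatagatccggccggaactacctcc
Plxnc1 holds 2 such GC boxes in this stretch, Plxnd1 holds 1, and Sema3a and Sema3d hold 0. Over 250 bases before the start, 68.8% of the bases are G or C in Plxnc1, 64.8% in Plxnd1, 40.8% in Sema3a and 46.8% in Sema3d, where the quartiles of all 32851 promoters are 45.2%, 52.4% and 61.2%. The other called members with a window did not divide in this way. Sema3c, called lower, has 78.4% and 1 GC box in its 150 bases. Sema6c, called lower, has 57.6% and 58.4% in its windows, and Sema6d, called higher, has 52.4% and 45.2%. Each of these has 1 GC box in the first window and 0 in the second. A GC box was present in 32 of the 44 member windows (72.7%) and in 32.7% of all promoters. The windows belong to 33 genes, 26 of them with a GC box, so windows of the same gene are not independent. The shares were not matched for G and C content. The NF-κB consensus was found in 3 member windows (6.82%), those of Plxna3, Sema4a and Sema4c, against 7.25% of all promoters, searched on both strands. None of these 3 genes had an unadjusted edgeR p under 0.05. The CArG box, the serum response factor element, was present in 1 member window, of Sema4d, and in 1.47% of all promoters. These are matches of letters in a window and not measured binding sites.

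Among the ligands, the class 3 semaphorins were lower in caIKK2EC aortas in 6 of 7 members, with a median log2 fold change of -0.71. Of all genes tested, 7724 of 14679 had a log2 fold change below 0. DESeq2 with all libraries and no covariate called 1.51% of all genes lower. Of the class it called 3 of the 7 lower (Sema3a, Sema3c and Sema3d) and none higher. In 4 the unadjusted edgeR p was under 0.05, against 7.47% of all genes in this direction, and edgeR's adjusted p called none (lowest 0.141). All 4 members on chromosome 5, Sema3d, Sema3a, Sema3e and Sema3c, had values below 1-fold, as did the neighbours Sema3b and Sema3f on chromosome 9, which lie 72.3 kb apart. The exception was Sema3g on chromosome 14. Summed per kilobase, the class stood at 74.0 ± 7.95 CPM per kb in caIKK2EC and 98.4 ± 20.6 CPM per kb in Control (SD, n = 5 and 3).

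Sema3c (chr5:17574281-17730268, plus strand), which guides neural crest cells into the cardiac outflow tract of the embryo, stood at 56.5, 70.5, 54.4, 74.1 and 78.8 CPM in caIKK2EC 1 to 5, against 81.9, 99.6 and 146 CPM in Control 1 to 3. All 5 caIKK2EC values were lower than all 3 Controls, and Control 3 was the highest. The edgeR fold was 0.613 (log2 -0.71, SE 0.19), with an edgeR adjusted p of 0.141, a DESeq2 adjusted p of 0.0295 and an exact two-sided permutation p of 0.0357. Sema3d (chr5:12383385-12588948, plus strand), a close relative that repels endothelial cells, had 36.2, 53.2, 33.8, 45.9 and 51.8 CPM in caIKK2EC 1 to 5, against 52.1, 80.7 and 85.5 CPM in Control 1 to 3. Only caIKK2EC 2 reached into the Control range, just above Control 1. Its fold was 0.607 (log2 -0.72, SE 0.20; edgeR adjusted p = 0.141, DESeq2 adjusted p = 0.0316).

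Sema3a, the classical growth cone repellent and a ligand of Nrp1, was among the lowest members with 0.317 ± 0.108 CPM per kb in caIKK2EC and 0.685 ± 0.317 CPM per kb in Control (SD, n = 5 and 3). Sema3a (chr5:13125414-13602565, plus strand) had 4.27, 6.78, 4.57, 2.81 and 3.53 CPM in caIKK2EC 1 to 5, against 5.59, 8.65 and 14.3 CPM in Control 1 to 3. The groups overlapped through caIKK2EC 2 and Control 1. The fold of 0.462 was the lowest in the class (log2 -1.11, SE 0.34; edgeR adjusted p = 0.161, DESeq2 adjusted p = 0.0402, exact permutation p = 0.0714). Without Control 3 the DESeq2 log2 fold change was -0.69 for Sema3a, -0.43 for Sema3c and -0.58 for Sema3d, with adjusted p values of 0.396, 0.262 and 0.233, so all 3 calls ended. Control 3 was also the highest library in the smooth muscle marker sum; whether smooth muscle had a part in these differences was not tested.

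Sema3b (chr9:107597674-107609229, minus strand), a ligand of Nrp2, had 31.7, 98.4, 48.7, 55.5 and 54.2 CPM in caIKK2EC 1 to 5, against 77.6, 100.2 and 105 CPM in Control 1 to 3. Only caIKK2EC 2 lay within the Control range, and the other 4 caIKK2EC libraries lay below it (log2 -0.71, SE 0.29, edgeR adjusted p = 0.257, DESeq2 adjusted p = 0.160). DESeq2 called Sema3b lower with age as a covariate (adjusted p = 0.00678), and also without caIKK2EC 2 (adjusted p = 0.00057). Leaving out any other library gave no DESeq2 call. With lane as a covariate the DESeq2 log2 fold change of Sema3b was -1.57. That fit sets caIKK2EC 1, the lowest library for Sema3b, against the Controls of its lane. Lane and this mouse cannot be told apart in it. Sema3f (chr9:107681500-107710475, minus strand), also an Nrp2 ligand and the most abundant semaphorin, had 161, 214, 209, 170.2 and 161 CPM in caIKK2EC 1 to 5, against 179, 238 and 303 CPM in Control 1 to 3. Its groups overlapped (log2 -0.39, SE 0.18; edgeR adjusted p = 0.302), and without Control 3 the value was -0.19. Per kilobase this was 35.2 ± 5.06 CPM per kb in caIKK2EC and 46.2 ± 11.9 CPM per kb in Control. Sema3e, which binds Plxnd1 without a neuropilin, averaged 5.40 ± 1.97 CPM in caIKK2EC and 9.05 ± 3.55 CPM in Control (log2 -0.74; edgeR adjusted p = 0.3004). Sema3g, a semaphorin of arterial endothelium, averaged 11.3 ± 3.56 CPM per kb in caIKK2EC and 7.02 ± 2.51 CPM per kb in Control (log2 0.69, SE 0.32; edgeR adjusted p = 0.305). When age was added to the fit, DESeq2 called Sema3g in the higher direction (adjusted p = 0.0249). Dropping caIKK2EC 2 also gave this call (adjusted p = 0.0121). In the class, DESeq2 further called Sema3f lower without Control 1 (adjusted p = 0.0444).

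The 6 class 4 semaphorins are membrane proteins, several of them on immune cells. Only Sema4d stood apart between the groups, and with all libraries and no covariate DESeq2 called none. The median log2 fold change was 0.17, and the summed class stood at 30.3 ± 2.18 CPM per kb in caIKK2EC and 25.8 ± 2.32 CPM per kb in Control. Sema4d (chr13:51685529-51793747, minus strand), known as CD100 on lymphocytes and a ligand of Plxnb1, Plxnb2 and Cd72, had 66.3, 57.6, 84.9, 79.2 and 79.6 CPM in caIKK2EC 1 to 5, against 55.9, 55.8 and 31.9 CPM in Control 1 to 3. All 5 caIKK2EC libraries lay above the Controls, by a small margin for caIKK2EC 2 (1.54-fold, log2 0.62, SE 0.20; edgeR adjusted p = 0.179, DESeq2 adjusted p = 0.0638, exact permutation p = 0.0357). Without Control 3 the edgeR log2 fold change was 0.40. When age was added to the fit, DESeq2 called Sema4d in the higher direction (adjusted p = 0.00515). Dropping caIKK2EC 2 or Control 1 also gave this call (adjusted p = 0.0188 and 0.0456). Macrophage markers showed the same order of groups, and their part in the Sema4d values was not tested.

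Sema4c (chr1:36548639-36558349, minus strand), a Plxnb2 ligand, had 31.8, 29.7, 35.1, 43.8 and 34.5 CPM in caIKK2EC 1 to 5, against 35.1, 35.1 and 36.9 CPM in Control 1 to 3. The Controls lay inside the caIKK2EC range, and the fold was 0.980 (log2 -0.03, SE 0.13; edgeR adjusted p = 0.938). Sema4a averaged 33.0 ± 6.21 CPM in caIKK2EC and 28.8 ± 5.01 CPM in Control, and Sema4b averaged 36.6 ± 3.65 CPM in caIKK2EC and 34.2 ± 2.33 CPM in Control, with edgeR adjusted p values of 0.610 and 0.715. Sema4f and Sema4g were low, at 1.58 and 2.23 CPM in caIKK2EC and 1.15 and 2.04 CPM in Control.

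With all libraries and no covariate, classes 5 to 7 held a member called higher and a member called lower by DESeq2, both in class 6. The median log2 fold change was 0.11 over 7 genes. Sema6d (chr2:124089969-124667770, plus strand), a ligand of Plxna1 that acts in mouse dendritic cells and osteoclasts through a Plxna1 complex with Trem2 and Tyrobp, had 29.7, 27.7, 41.7, 53.8 and 43.1 CPM in caIKK2EC 1 to 5, against 22.4, 24.0 and 22.3 CPM in Control 1 to 3. Each caIKK2EC library lay above the Controls, which differed little from each other. The fold was 1.71 (log2 0.77, SE 0.21; edgeR adjusted p = 0.138, DESeq2 adjusted p = 0.0201, exact permutation p = 0.0357). The library caIKK2EC 1, the only one on the lane of the Controls, differed from the Control mean by 0.37 on the log2 scale. With lane as a covariate the DESeq2 log2 fold change was 0.38, with an adjusted p of 0.684. That fit sets caIKK2EC 1 against the Controls of its lane, so lane and this mouse cannot be told apart, and caIKK2EC 2 on lane 8 was lower still.

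Sema6c (chr3:95160457-95174024, plus strand), a class A plexin ligand, had 9.01, 11.8, 9.31, 10.2 and 9.48 CPM in caIKK2EC 1 to 5, against 14.5, 12.4 and 16.7 CPM in Control 1 to 3. There was no overlap, and caIKK2EC 2 came closest to the Controls (0.684-fold, log2 -0.55, SE 0.15; edgeR adjusted p = 0.144, DESeq2 adjusted p = 0.0294). Without Control 3 its DESeq2 log2 fold change was -0.43, with an adjusted p of 0.227. Sema6b (chr17:56123085-56140343, minus strand), another plexin-A ligand, had 30.2, 20.8, 32.7, 24.0 and 21.3 CPM in caIKK2EC 1 to 5, against 17.4, 18.4 and 22.1 CPM in Control 1 to 3. The libraries caIKK2EC 2 and 5 lay under Control 3 (log2 0.42, SE 0.18; edgeR adjusted p = 0.275). Adding lane to the fit gave a log2 value of 0.65.

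Sema7a (chr9:57940112-57962865, plus strand), which is anchored by a lipid and binds Plxnc1 and beta-1 integrins, had 34.0, 28.3, 37.0, 47.4 and 21.7 CPM in caIKK2EC 1 to 5, against 25.1, 22.4 and 14.4 CPM in Control 1 to 3. Its fold was 1.63, but caIKK2EC 5 lay below 2 of the Controls (log2 0.71, SE 0.26; edgeR adjusted p = 0.214, DESeq2 adjusted p = 0.0996). When age was added to the fit, DESeq2 called Sema7a in the higher direction (adjusted p = 0.0204). Dropping caIKK2EC 5 also gave this call (adjusted p = 0.0455). The age term brought a DESeq2 call in the lower direction for Sema5a (adjusted p = 0.0496). Sema5a averaged 64.6 ± 18.6 CPM in caIKK2EC and 89.5 ± 43.7 CPM in Control (edgeR adjusted p = 0.484), Sema6a averaged 27.1 ± 3.44 CPM in caIKK2EC and 25.2 ± 7.72 CPM in Control, and Sema5b had at most 1.38 CPM in any library.

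Among the receptors, DESeq2 with all libraries and no covariate called 3 of the 11 plexins and plexin domain-containing proteins higher and none lower. Of all genes it called 4.55% higher. The median log2 fold change of the 11 was 0.17. The same 3 were those without overlap between the groups, which 7.01% of all genes were in this direction. Plxnc1 (chr10:94790866-94944835, minus strand), the receptor of Sema7a on myeloid cells and neurons, had 53.2, 36.7, 64.3, 71.0 and 65.4 CPM in caIKK2EC 1 to 5, against 30.5, 28.1 and 27.9 CPM in Control 1 to 3. The Controls lay within a narrow band, and caIKK2EC 2 was the library nearest to them. The fold was 2.01 (log2 1.01, SE 0.20; edgeR adjusted p = 0.107, DESeq2 adjusted p = 0.000535, exact permutation p = 0.0357). Of its exon bases, 1.4% are shared with Gm48718 on the same strand. Per kilobase the level was 6.96 ± 1.63 CPM per kb in caIKK2EC and 3.46 ± 0.169 CPM per kb in Control.

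The DESeq2 call of Plxnc1 held in 10 of 11 other settings: leaving out each of the 8 libraries, and adding sex or age as a term. With lane as a term its log2 fold change was 0.89 and the adjusted p 0.152, and caIKK2EC 1 alone differed from the Control mean of its lane by 0.88. All 10 macrophage markers showed the same order of groups as Plxnc1, with a median log2 fold change of 0.90. How much of the Plxnc1 difference went with macrophages was not tested.

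**Figure D3:**
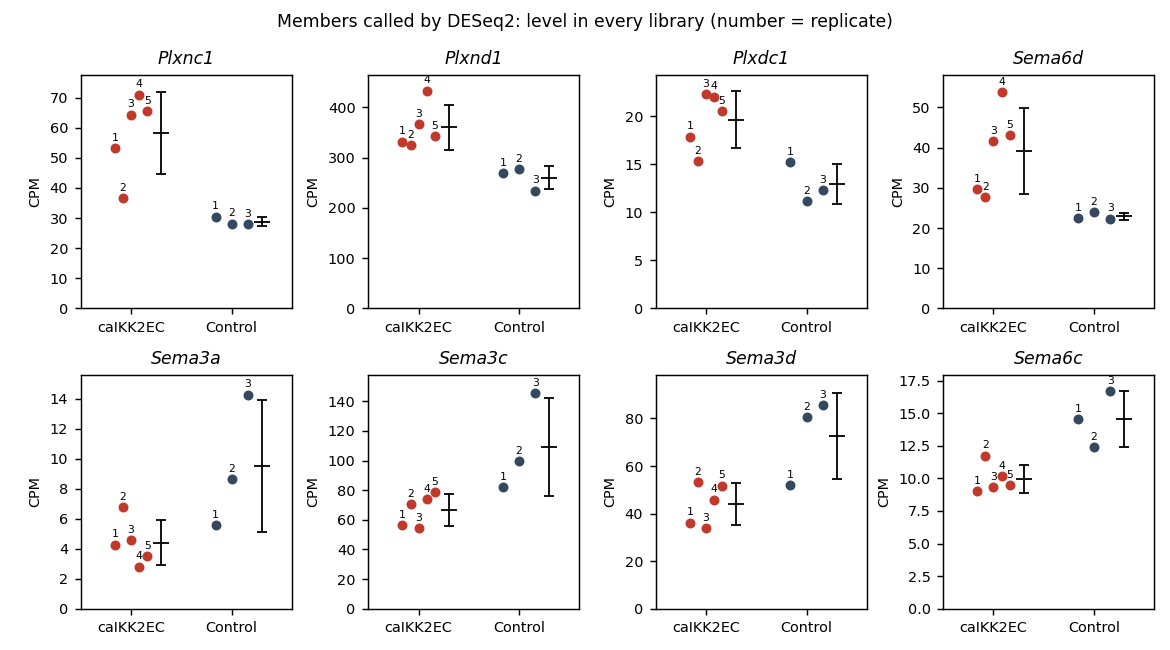
Level in CPM of the 8 members called by DESeq2 in each library, caIKK2EC left of Control in each panel. Points are libraries numbered by replicate and bars are mean and SD, and the y axes start at 0. Of the 3 genes called lower in the class 3 semaphorins, each has Control 3 as its highest library.

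Plxnd1 (chr6:115954811-115995005, minus strand), the plexin of endothelium that binds Sema3e and shapes vessels and the cardiac outflow tract, had 332, 325, 367, 433 and 343 CPM in caIKK2EC 1 to 5, against 269, 276 and 234 CPM in Control 1 to 3. The lowest caIKK2EC library lay above the highest Control. The fold was 1.39 (log2 0.47, SE 0.14; edgeR adjusted p = 0.147, DESeq2 adjusted p = 0.0156, exact permutation p = 0.0357), and the level per length was 49.3 ± 6.01 CPM per kb in caIKK2EC and 35.6 ± 3.09 CPM per kb in Control. Its DESeq2 call held in 6 of 11 other settings and ended without Control 3 (log2 0.41, adjusted p = 0.1001). Endothelial markers had a median log2 fold change of 0.14, and in 1 of the 10 the groups did not overlap.

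Plxdc1 (chr11:97923238-97986444, minus strand), a single-pass protein first found in tumour endothelium that carries a plexin-like domain but is no plexin, had 17.9, 15.3, 22.3, 22.0 and 20.6 CPM in caIKK2EC 1 to 5, against 15.3, 11.2 and 12.3 CPM in Control 1 to 3. The groups were apart by a small margin, 15.34 CPM in caIKK2EC 2 against 15.26 CPM in Control 1. The fold was 1.52 (log2 0.60, SE 0.17; edgeR adjusted p = 0.144, DESeq2 adjusted p = 0.0271), and 4 of 11 other DESeq2 settings kept the call. Its relative Plxdc2 averaged 172 ± 34.3 CPM in caIKK2EC and 159 ± 9.21 CPM in Control (log2 0.11; edgeR adjusted p = 0.777).

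None of the 3 plexins of class B was called with all libraries and no covariate. Plxnb1 (chr9:109095389-109119917, plus strand), the high-affinity Sema4d receptor, had 30.0, 41.5, 37.2, 41.9 and 34.0 CPM in caIKK2EC 1 to 5, against 47.3, 40.6 and 87.6 CPM in Control 1 to 3. Control 3 stood far above the other 7 libraries, and Control 2 lay inside the caIKK2EC range (0.631-fold, log2 -0.66, SE 0.23; edgeR adjusted p = 0.196, DESeq2 adjusted p = 0.101). Without Control 3 the DESeq2 log2 fold change was -0.24. With age as a covariate both tools called Plxnb1 lower (edgeR adjusted p = 0.0454, DESeq2 adjusted p = 0.00585). DESeq2 also called it without Control 2 (adjusted p = 0.0273), and the other settings gave no call. Plxnb2 (chr15:89155549-89180788, minus strand), the more abundant Sema4d receptor, had 289, 310.5, 345, 329 and 335 CPM in caIKK2EC 1 to 5, against 265, 249.7 and 342 CPM in Control 1 to 3. Here the groups overlapped through Control 3 (log2 0.17, SE 0.14; edgeR adjusted p = 0.553), and the value was 0.32 without Control 3 and 0.02 with lane as a covariate. Plxnb3 was low, at 1.72 CPM in caIKK2EC and 1.87 CPM in Control.

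Class A plexins, the signalling partners of the neuropilins, passed no test. Plxna1 averaged 197 ± 38.6 CPM in caIKK2EC and 157 ± 21.6 CPM in Control (log2 0.33; edgeR adjusted p = 0.369), and 10.7% of its exon bases overlap an antisense gene. Plxna2 averaged 65.1 ± 15.0 CPM in caIKK2EC and 49.3 ± 4.88 CPM in Control (log2 0.40; edgeR adjusted p = 0.311). Plxna4 averaged 67.2 ± 13.8 CPM in caIKK2EC and 82.9 ± 25.5 CPM in Control, and Plxna3 averaged 11.9 ± 2.13 CPM in caIKK2EC and 12.3 ± 2.56 CPM in Control. Summed per kilobase, the 4 genes stood at 31.8 ± 5.61 CPM per kb in caIKK2EC and 27.6 ± 4.35 CPM per kb in Control.

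Both neuropilins, co-receptors of class 3 semaphorins and of VEGF, had log2 fold changes above 0, and neither passed a test. Nrp1 (chr8:128358604-128503363, plus strand) had 385, 327, 438, 383 and 446 CPM in caIKK2EC 1 to 5, against 368, 325 and 258 CPM in Control 1 to 3. The ranges overlapped through caIKK2EC 2, which lay between Controls 1 and 2 (1.25-fold, log2 0.32, SE 0.16; edgeR adjusted p = 0.330, exact permutation p = 0.0714). Leaving out Control 3 gave a log2 value of 0.19. Nrp2 (chr1:62703285-62818695, plus strand), the receptor of Sema3b and Sema3f and a marker of veins and lymphatics, had 113, 53.8, 126, 127 and 121 CPM in caIKK2EC 1 to 5, against 74.5, 72.0 and 75.1 CPM in Control 1 to 3. The values of caIKK2EC 1, 3, 4 and 5 lay above all Controls, while caIKK2EC 2 lay below all of them. With all libraries the log2 fold change was 0.55 (SE 0.25; edgeR adjusted p = 0.292), and without caIKK2EC 2 it was 0.72 with an edgeR adjusted p of 0.0253, so 1 library decided the call.

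**Figure D4:**
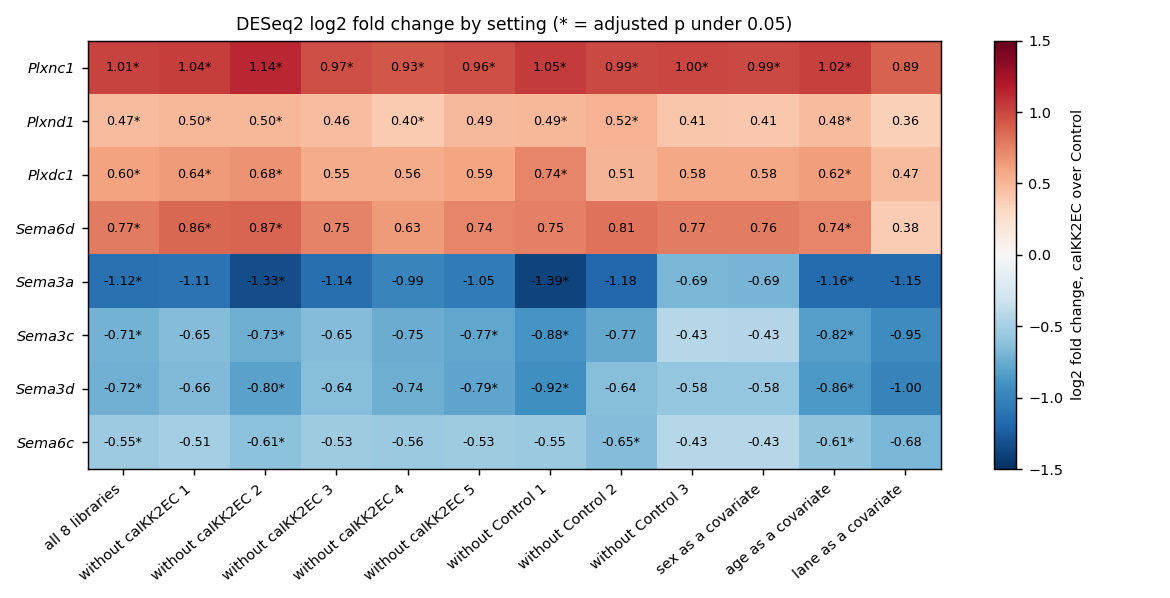
DESeq2 log2 fold change (caIKK2EC over Control, colour and number) of the 8 called members with all 8 libraries, without each library in turn, and with sex, age or lane as a covariate. A star marks an adjusted p under 0.05; Plxnc1 carries it in every column but that for lane, and without Control 3 it is the only gene with one.

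In the netrin branch, with all libraries and no covariate, DESeq2 called none of the 4 netrins and none of the 5 netrin receptors. With age as a covariate DESeq2 called Ntn1, Neo1, Unc5c and Unc5d lower, with adjusted p values of 0.0188, 0.0387, 3.53e-05 and 0.0252, and edgeR called Unc5c (adjusted p = 0.0253). The age term also raised the edgeR calls over all genes, and the DESeq2 share of all genes with it is not given here. These calls are therefore no result about the netrin branch as a group. Ntn1 (chr11:68209364-68400823, minus strand), which in mouse plaques is known to hold macrophages in place, had 212, 339, 332, 300.3 and 314.8 CPM in caIKK2EC 1 to 5, against 328, 384 and 585 CPM in Control 1 to 3. Control 3 was the highest and caIKK2EC 1 the lowest library, and caIKK2EC 2 and 3 lay just above Control 1. The fold was 0.693 (log2 -0.53, SE 0.21; edgeR adjusted p = 0.244, DESeq2 adjusted p = 0.155, exact permutation p = 0.107). The edgeR log2 fold change was -0.25 without Control 3 and -1.03 with lane as a covariate. The lane fit sets caIKK2EC 1 alone against the Controls of its lane. Control 3 and caIKK2EC 1 were also the extremes of the smooth muscle marker sum, and the part of smooth muscle was not tested. Ntn4 (chr10:93640681-93747207, plus strand), a netrin of basement membranes, had 49.8, 88.1, 94.3, 57.6 and 75.9 CPM in caIKK2EC 1 to 5, against 56.8, 88.9 and 59.6 CPM in Control 1 to 3. The groups covered the same range (log2 0.10, SE 0.23; edgeR adjusted p = 0.877). Ntn3 and Ntng2 averaged 6.21 and 13.8 CPM in caIKK2EC and 6.39 and 15.0 CPM in Control, and 14.0% of the exon bases of Ntng2 overlap another transcript.

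Of the netrin receptors, Neo1 (neogenin; chr9:58874687-59036441, minus strand), which also binds the repulsive guidance molecules, had 78.6, 153, 142, 159 and 179 CPM in caIKK2EC 1 to 5, against 129, 152 and 334 CPM in Control 1 to 3. The difference rested on Control 3: the log2 fold change was -0.53 (SE 0.33, edgeR adjusted p = 0.448) with it and 0.02 without it. With lane as a covariate the value was -1.38, in a fit that sets caIKK2EC 1, the lowest library for Neo1, against the Controls. Unc5c (chr3:141465216-141834924, plus strand), a repulsive netrin receptor, had 11.2, 35.0, 19.3, 23.5 and 23.4 CPM in caIKK2EC 1 to 5, against 29.2, 35.0 and 68.6 CPM in Control 1 to 3. Again Control 3 was highest and caIKK2EC 1 lowest, and caIKK2EC 2 nearly equalled Control 2 (0.508-fold, log2 -0.98, SE 0.35; edgeR adjusted p = 0.206, DESeq2 adjusted p = 0.0817). The edgeR log2 fold change of Unc5c was -0.51 without Control 3 and -1.98 with lane as a covariate. Here too the lane fit sets caIKK2EC 1 alone against the Controls. Unc5b (chr10:60762593-60831581, minus strand), the receptor of Ntn1 on endothelium and macrophages, had 78.2, 75.6, 107, 151 and 104 CPM in caIKK2EC 1 to 5, against 83.1, 68.1 and 74.1 CPM in Control 1 to 3. Its groups overlapped (1.37-fold, log2 0.46, SE 0.22; edgeR adjusted p = 0.318). Adding lane to the fit gave a log2 value of 0.06.

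Unc5d (chr8:28646717-29219636, minus strand) lay close to the limit of detection, with 2 to 36 raw counts in caIKK2EC libraries and 41 to 61 in Controls. In CPM it had 0.0777, 1.52, 0.726, 1.07 and 0.744 in caIKK2EC 1 to 5, against 1.52, 1.96 and 2.798 in Control 1 to 3. All caIKK2EC values were below all Controls, but caIKK2EC 2 and Control 1 nearly met (log2 -1.33, SE 0.61; edgeR adjusted p = 0.301, DESeq2 adjusted p = 0.212, exact permutation p = 0.0357). With lane as a covariate the DESeq2 log2 fold change of Unc5d was -4.74. That value rests on caIKK2EC 1, the only one on the lane of the Controls, which had 2 raw counts. Unc5a averaged 3.06 ± 0.740 CPM in caIKK2EC and 3.49 ± 0.637 CPM in Control (edgeR adjusted p = 0.771).

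The other genes of the pathway were read from lists of partners, processing enzymes and intracellular signalling genes, with edgeR calling 0 in each. Of 26 tested ligand and receptor partners, DESeq2 called 2 higher and 1 lower, against 4.55% and 1.51% of all genes, with a median log2 fold change of 0.00. Shares this close to those of all genes are no result about the partners as a list, and the genes are given for their own values. Cd72, the Sema4d receptor of B cells that macrophages also carry, had 83.4, 66.6, 72.6, 69.3 and 78.6 CPM in caIKK2EC 1 to 5, against 49.5, 33.4 and 21.4 CPM in Control 1 to 3. The groups were far apart (2.13-fold; edgeR adjusted p = 0.107, DESeq2 adjusted p = 0.000759). Itga6, the integrin alpha-6 chain, had 122, 77.7, 149, 174 and 145 CPM in caIKK2EC 1 to 5, against 77.8, 71.8 and 84.8 CPM in Control 1 to 3, with caIKK2EC 2 inside the Control range (1.71-fold; DESeq2 adjusted p = 0.0268). Ptprz1, a receptor tyrosine phosphatase, was 0.470-fold and called lower (DESeq2 adjusted p = 0.0335), with caIKK2EC 2 above Control 1.

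All 8 processing enzymes were tested, with a median log2 fold change of 0.45, against -0.02 over all genes; 5 had an unadjusted edgeR p under 0.05 and were higher, and 1 was lower, against 9.66% and 7.47% of all genes. DESeq2 called 2 higher, against 4.55% of all genes. Mmp14, a membrane metalloprotease that releases the ectodomain of Sema4d, had 416, 396, 474, 609 and 485 CPM in caIKK2EC 1 to 5, against 339.6, 282 and 227 CPM in Control 1 to 3. Adam17, another sheddase, had 109.6, 88.8, 127, 129.8 and 122 CPM in caIKK2EC 1 to 5, against 77.9, 86.4 and 63.9 CPM in Control 1 to 3. Neither gene overlapped between the groups (1.68-fold for Mmp14 and 1.52-fold for Adam17; DESeq2 adjusted p = 0.00387 and 0.0135).

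Of 54 intracellular signalling genes, DESeq2 called 6 higher and 1 lower, against 4.55% and 1.51% of all genes, and the median log2 fold change was 0.04. The 1 lower gene is close to the share of all genes. The higher ones were Rac2, the Rac GTPase of blood cells (1.54-fold, DESeq2 adjusted p = 0.000279), Limk1, the kinase that inactivates cofilin (1.34-fold, 0.0203), Vav2, a guanine nucleotide exchange factor (1.49-fold, 0.0212), and Sh3bp1, a GTPase-activating protein for Rac that binds Plxnd1 (1.38-fold, 0.0422). The other two were Tyrobp and Trem2, an adaptor and its receptor on macrophages that join Plxna1 in the Sema6d receptor of the mouse (1.72-fold, 0.0166, and 1.74-fold, 0.0302). Trem2 had 271, 249, 331, 256 and 275 CPM in caIKK2EC 1 to 5, against 202, 187 and 86.9 CPM in Control 1 to 3. Rac2, Tyrobp, Trem2 and the macrophage markers showed the same order of groups, and their dependence on macrophages was not tested. The lower one was Enah, an actin regulator of the Ena/VASP family (0.518-fold, 0.0350), whose highest library was Control 3 at 704 CPM. Trem2 was named here beyond the rule for this list, after its values were seen.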

How the data were processed

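Poly(A) RNA of whole aortas was sequenced with 1 library per mouse (5 caIKK2EC, 3 Control). The authors deposited raw counts by gene symbol. Their upstream tools were STAR 2.7.0e, FastQC 0.11.5 and DESeq2 1.22.2 on GRCm38, per the submitters' processing notes. The counting program, annotation and strand setting were not given in the sources used, and overlapping genes may share reads. The deposited comparison of caIKK2EC with Control also gives a log2 fold change, a test score, p-values and a normalized signal, per the file headers. Of 27 gene names turned into dates, 23 were restored by identical counts and 4 stayed unnamed. The authors' 869 calls and those of the DESeq2 fit made here were the same genes.

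Differences were tested with edgeR 4.0.16 on R 4.3.3 (TMM, the package's filter on low counts, robust quasi-likelihood fit, Benjamini-Hochberg over 14679 genes, threshold 0.05), with DESeq2 1.42.0 on the 16671 genes with a total of at least 10 as the alternative. CPM values are scaled by TMM, and the standard error is the log2 fold change over the root of the F statistic. Exact permutation tests used log2(CPM + 0.5) over all 56 arrangements of the group labels. Lengths are exon unions of GENCODE M21. Both tools were tested on simulated data, where neither called a changed gene in the wrong direction, and DESeq2, unlike edgeR, made more false calls than its threshold allows. These data were drawn once with edgeR's own estimates of spread, so they cannot rank the tools on the real libraries. Members and lists were chosen with earlier results of these data known. Values of every library are given for members called by a tool, with an unadjusted edgeR p under 0.05 or without overlap, and for the 2 highest per length in each family. Replicate numbers 1 to 3 do not pair the libraries: deviations correlated by 0.335, 0.099 and 0.097. No 2 libraries agreed within counting noise (chi-square per degree of freedom at least 16.9). P-values set a difference against the spread between the libraries of a group. In fits without covariates that spread also holds age, sex among the Controls and lane among the caIKK2EC libraries. Floors cover counting error only.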

Additional observations from a re-analysis of the deposited data

Results flagged for a closer look

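Nrp2 in caIKK2EC 2 stood far from the other libraries of its group, at 53.8 CPM against 113 to 127 CPM in caIKK2EC 1, 3, 4 and 5. Its gap to the nearest of these was 0.809 of the range of the group, above the limit of 0.71 for 5 samples. All 3 Controls lay between it and the others, at 72.0 to 75.1 CPM. The 5 caIKK2EC libraries were checked in each of 42 members, of which chance alone would flag about 1 in 20. In Itga6 and Plxnc1, too, caIKK2EC 2 was the lowest of its group, at 77.7 and 36.7 CPM. Both genes were picked out after their values were seen. Over all genes, the counts of caIKK2EC 2 were closer to Control 2 and Control 1 (chi-square per degree of freedom 47.0 and 49.4) than to any caIKK2EC library (56.05 to 114), while Control 3 was far from every other library (116 to 254).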

How the results depend on the processing

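EdgeR called 0 members and 0 genes in all with all libraries, and DESeq2 called 4 members higher and 4 lower, of 652 and 217 genes. With age as a covariate edgeR called 1 and 5 members, of 407 and 254 genes. Leaving out each library in turn gave edgeR 0 to 3 members higher and 0 to 1 lower, of 0 to 230 and 0 to 129 genes, all the calls coming without caIKK2EC 2. DESeq2 then called 1 to 7 members higher and 0 to 6 lower. With covariates, DESeq2 called 1 and 0 members for sex and 7 and 11 for age. How many of all genes DESeq2 called with covariates and without each library is not given here. These counts are therefore no result about the members as a group. The member median of 0.03 became -0.27 with lane as a covariate. The cause of these changes was not tested. By design, the sex term in effect leaves out Control 3, and the lane term in effect sets caIKK2EC 1 alone against the Controls. Of the members described for their level, 3 changed sign: leaving out each library gave Sema4c -0.1045 to 0.024, Ntn4 -0.0131 to 0.3473 and Neo1 -0.7555 to 0.0178 on the log2 scale, Ntn4 was -0.46 with lane, and Neo1 was 0.0173 with sex. With the replicate block on the 6 libraries numbered 1 to 3, 0 members were called, with a member median of -0.06, and without it also 0, with a median of -0.04. By the longest transcript, 13 of 24 levels per length in caIKK2EC and 14 of 24 in Control moved by more than 1 SD. Unc5d gets no value under a filter of 100 mean counts. Other scalings and low-count filters left all counts at 0, and pseudocounts of 0.1 and 2 kept each exact p on its side of 0.05. With 3 Controls, 1 of them male, and lane confounded with genotype in 4 of 5 caIKK2EC libraries, small differences could not be resolved.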
